A study of Arabidopsis thaliana with 9 samples.

Results

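Alpha-expansins (EXPA) and xyloglucan endotransglucosylase/hydrolases (XTH) are secreted proteins that remodel the plant cell wall. Expansins loosen the contacts between cellulose and xyloglucan without cutting either polymer, and they let a wall extend at acid pH. XTH enzymes cut a xyloglucan chain and join the cut end to another chain, which can loosen or reinforce a wall. Different members serve different organs, with sets known from leaves, roots, root hairs, veins and stamens.

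The 44 genes described here, of 33323 identifiers in the count files, were taken by their AGI identifiers. They comprised 17 EXPA genes and 27 XTH genes. The root hair genes EXPA7 and EXPA18 and the gene XTH3 were set aside by the rule that chose them, and EXPA19, EXPA21 to EXPA26, XTH1, XTH2, XTH10, XTH11 and XTH29 were not on its list of identifiers. The XTH genes were ordered by their phylogenetic groups, with 6 members in group I (XTH4 to XTH9), 15 in group II (XTH12 to XTH26) and 6 in group III (XTH27, XTH28 and XTH30 to XTH33).

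Transcripts were counted in Arabidopsis thaliana seedlings of 3 genotypes with 3 libraries each. The genotypes were pca31, which the series describes as a suppressor of atrzf1, the atrzf1 mutant itself, and WT of the Col-0 accession. All seedlings were 2 weeks old and had grown on MS medium, and the labels name no stress treatment. The series asked whether AtRZF1, a RING-type ubiquitin ligase gene, and the rhamnogalacturonan lyase gene RGL1 act on shared target genes in opposite directions. The sources used here do not state the kinds of allele, whether pca31 also carries the atrzf1 mutation, or how many seedlings were pooled. AtRZF1 itself averaged 2.29 ± 1.03 CPM in pca31 and 3 ± 1.39 CPM in atrzf1, against 26.8 ± 3.68 CPM in WT (CPM, counts scaled by library size with TMM factors; SD, n = 3 each).

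The titles number the libraries 1 to 3 within each genotype, and the labels do not say what a number stands for or whether libraries came from separate cultures. The p-values below therefore measure only the spread between these libraries, which may be technical. Total counts ran from 22478803 to 33073605 per library, and the 44 genes took 0.1442% to 0.2273% of them. Of the 44 genes, 39 passed the filter on low counts and were tested among 20672 genes. The 5 that did not pass were EXPA2, EXPA12, EXPA17, XTH21 and XTH24, and EXPA12 had 0 counts in every library.

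The 3 libraries numbered 3 stood apart from the other 6 in their tissue markers. The 13 root markers together reached 1572 to 2265 CPM in number 3 libraries, against 38.5 to 74.9 CPM in number 2 and 78.5 to 169.7 CPM in number 1. Most of the number 3 sums came from PYK10, at 1341 to 1847 CPM there. NRT2.1, a root marker not tested, went the other way near the floor. It was at 0 to 0.0393 CPM in number 3, 0 to 0.881 CPM in number 2 and 0 to 0.161 CPM in number 1. The 8 root hair markers reached 40.1 to 64.1 CPM in number 3, against 0.351 to 1.18 CPM in number 2 and 1.07 to 1.58 CPM in number 1. The label of these samples is seedling, and root genes differed in how they were seen in the other 6 libraries. CASP4 and CASP5, which belong to the root endodermal barrier, and RHD6, RSL4 and LRX1, which act in root hairs, had 0 counts in every library of numbers 2 and 1. SCR, a regulator of root tissue layers, was at 8.5 to 14.7 CPM there. It is also named SHOOT GRAVITROPISM 1. The tissue from which the counts of SCR or of the other markers came was not tested. CASP1 was at 2.93 to 5.79 CPM there and the root beta-glucosidase gene PYK10 at 17.3 to 153 CPM. The 7 green shoot markers ran the other way in sum, at 14341 to 18089 CPM in number 3, against 21693 to 35346 CPM in number 2 and 38820.1 to 42087 CPM in number 1. One by one they were mixed, with 3 called higher (LHCB1.1, LHCB2.1 and LHCA1) and 4 lower in number 3 than in number 2, and 0 higher and 5 lower than in number 1. The label seedling does not say which parts of the plants were collected. In RNA from mixed tissues, fewer cells of a type and less RNA per cell cannot be told apart.

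The upstream sequences of 5 members are shown because these genes carry the differences described next. XTH14 and XTH18 were far higher in number 3, XTH22 differed between all 3 numbers, and EXPA8 and EXPA16 were lower in number 3. Each is the 250 bases before the RefSeq gene start on the gene's own strand, 5′ to 3′, from the TAIR10.1 assembly. Capitals mark matches, on either strand, to 5 motifs. The TATA box was searched as TATAAA and the W-box core, the site of WRKY factors, as TTGACC. The rapid stress response element, bound by CAMTA factors, was searched as CGCGTT. The brassinosteroid response element was searched as CGTGTG and the G-box as CACGTG. The XTH14 stretch is chr4:13130041-13130290 on the plus strand, and those of XTH18, XTH22, EXPA8 and EXPA16 are chr4:14827212-14827461, chr5:23308681-23308930, chr2:16950706-16950955 and chr3:20576250-20576499 on the minus strand.
XTH14: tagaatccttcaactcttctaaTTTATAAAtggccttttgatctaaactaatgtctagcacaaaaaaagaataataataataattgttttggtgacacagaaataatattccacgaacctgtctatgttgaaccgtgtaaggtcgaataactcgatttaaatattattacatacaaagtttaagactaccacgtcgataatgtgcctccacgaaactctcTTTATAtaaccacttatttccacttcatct
XTH18: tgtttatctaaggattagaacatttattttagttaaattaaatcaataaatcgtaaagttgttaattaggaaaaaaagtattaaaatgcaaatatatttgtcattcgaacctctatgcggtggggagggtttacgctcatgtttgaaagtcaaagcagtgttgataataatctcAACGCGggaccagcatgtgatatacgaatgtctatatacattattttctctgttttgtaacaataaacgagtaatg
XTH22: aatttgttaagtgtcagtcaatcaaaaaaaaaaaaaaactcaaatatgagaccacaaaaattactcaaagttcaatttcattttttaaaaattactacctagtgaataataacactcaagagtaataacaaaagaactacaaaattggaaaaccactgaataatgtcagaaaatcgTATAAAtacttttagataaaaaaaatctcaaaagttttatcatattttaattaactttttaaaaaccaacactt
EXPA8: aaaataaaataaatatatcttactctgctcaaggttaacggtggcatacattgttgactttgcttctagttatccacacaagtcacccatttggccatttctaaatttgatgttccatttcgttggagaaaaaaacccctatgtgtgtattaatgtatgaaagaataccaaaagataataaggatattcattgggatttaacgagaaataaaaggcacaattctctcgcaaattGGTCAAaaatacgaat
EXPA16: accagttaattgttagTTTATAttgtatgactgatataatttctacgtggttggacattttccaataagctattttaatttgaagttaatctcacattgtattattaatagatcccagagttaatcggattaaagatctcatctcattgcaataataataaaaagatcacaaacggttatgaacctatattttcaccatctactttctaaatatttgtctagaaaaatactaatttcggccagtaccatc
XTH14 had 3 TATAAA matches, 2 of them on opposite strands and overlapping into 1 run of capitals, while XTH22 and EXPA16 had 1 each. XTH18 held CGCGTT, read on the other strand as AACGCG, and EXPA8 held TTGACC, read as GGTCAA.

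Over the 44 upstream stretches the same letters were counted beside 27443 stretches of equal length before protein-coding genes of the annotation. CGCGTT was present in 5 of 44 (EXPA6, EXPA12, XTH13, XTH18 and XTH20), against 2.59% of all stretches. CGTGTG was present in 6 of 44 (EXPA1, EXPA2, EXPA6, XTH8, XTH23 and XTH25), against 5.37%. TTGACC was in 6 of 44 against 12.2%, and TATAAA in 26 of 44 against 47.3%. CACGTG was in 0 of 44 against 6.49%. The root hair element was searched on either strand as the degenerate pattern WHHDTGNNN(N)KCACGWH, in the standard letters for mixed bases. It was in 0 of 44 members and in both EXPA7 and EXPA18, against 0.754% of all stretches. These matches describe letters in a window and do not show binding.

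Reads came from the 3′ ends of transcripts, so levels are compared between genes without dividing by length. XTH7 (AT4G37800) and EXPA1 (AT1G69530) had the highest mean level over the 9 libraries, at 239 CPM each. XTH4 (AT2G06850) at 212 CPM, XTH6 (AT5G65730) at 205 CPM and XTH9 (AT4G03210) at 143 CPM followed. XTH4 and XTH9 are known from stem growth, and EXPA1 from stomatal opening. Of the 44 genes 30 averaged at least 5 CPM, 11 averaged under 1 CPM, and 35 had a count in every library. The 5 most abundant members included 4 of the 6 group I genes and none of group II.

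**Figure D1:**
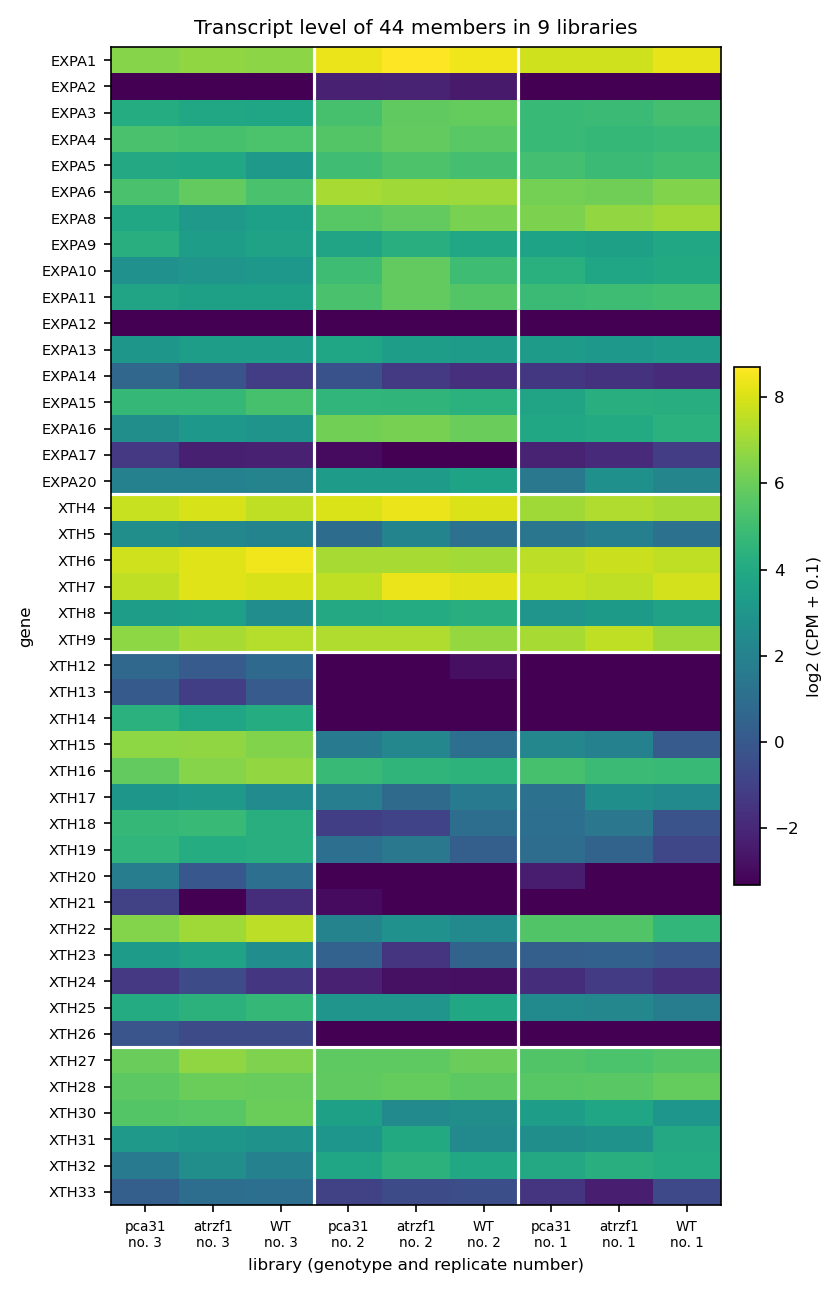
Level of each of the 44 genes (rows, ordered as EXPA, then XTH groups I, II and III, split by white lines) in each of the 9 libraries (columns, by replicate number and genotype), as log2 of CPM plus 0.1. In the rows of XTH13, XTH14 and XTH26 the darkest cells, in the columns of numbers 2 and 1, mark 0 counts, and the cells of number 3 are lighter in most group II rows.

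How the 44 genes varied with replicate number was asked first, with genotype as a term in the fit. In the comparison of number 3 with number 2, 30 of the 39 tested genes were called (edgeR quasi-likelihood test, Benjamini-Hochberg adjusted p under 0.05), beside 49.2% of all genes tested. Of these 17 were higher in number 3, beside 25.8% of all genes, and 13 were lower, beside 23.4%. For number 3 against number 1 the counts were 28 called, 19 higher and 9 lower, beside 32.9%, 15.6% and 17.3% of all genes. For number 2 against number 1 they were 14 called, 11 higher and 3 lower, beside 22%, 9.87% and 12.1%. The 3 comparisons share libraries. Of the 39 genes 6 passed the filter only through number 3, which favours higher values there. Among the other 33, 12 were called higher and 13 lower than in number 2, beside 24.1% and 24.6% of the 19639 genes that did not pass only through number 3. Against number 1 these counts were 14 and 9 of 33, beside 13.7% and 18.2%. Scaling by library totals in place of TMM put the median of all genes at 0.46 on the log2 scale in number 3 against number 2, where it was 0.06, and the split of number 3 against number 2 became 20 higher and 10 lower, with 8119 higher and 2792 lower over all genes instead of 5334 and 4834.

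Group II XTH genes were higher in number 3, to very different extents. Of its 15 members 13 were tested, and 5 of these (XTH12, XTH13, XTH14, XTH20 and XTH26) passed the filter only through number 3, so that they had to differ. All of the other 8 were called higher in number 3 than in number 2, with a median log2 fold change of 3.36, and 7 of the 8 were called higher than in number 1, with a median of 2.65. The median over all genes was 0.06 and −0.02 in these 2 comparisons. Against the mean of numbers 1 and 2, the 8 genes were 2.14-fold (XTH17) to 33.5-fold (XTH15) higher in number 3. XTH17 was the exception against number 1, with a log2 fold change of 0.74 ± 0.39 (SE; adjusted p = 0.167). Its call against number 2, at 1.45, was lost without atrzf1 library 2 (1.04) and without pca31 library 3 (1.23). All number 3 libraries lay above the other 6 for 7 of the 8 group II genes and for 12 of the 33 members that did not pass only through number 3. That pattern was seen in 16.6% of the 19639 such genes and in 18.9% of all genes tested.

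XTH14 (AT4G25820), an enzyme known from roots and root hairs, was at 20.7 CPM in pca31, 13.4 CPM in atrzf1 and 17.6 CPM in WT in the libraries of number 3. It had 0 counts in all 6 libraries of numbers 2 and 1. With 3 counts per library as the floor, XTH14 was at least 150.2-fold higher in number 3 than in number 2 and at least 169.6-fold higher than in number 1. Its neighbour on chromosome 4, XTH23 (AT4G25810), ends 363 bases before XTH14 starts and was detected in all libraries. XTH23 stood at 9.77 CPM in pca31, 12 CPM in atrzf1 and 5.94 CPM in WT in number 3, against 1.27, 0.263 and 1.3 CPM in number 2 and 1.13, 1.22 and 0.889 CPM in number 1, in the same genotype order. The log2 fold change of XTH23 was 3.26 ± 0.49 against number 2 (adjusted p = 0.000224) and 3.09 ± 0.47 against number 1 (adjusted p = 0.000473), without overlap between the libraries.

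XTH15 (AT4G14130), a gene known from shade responses of petioles, was at 101 CPM in pca31, 106 CPM in atrzf1 and 85.6 CPM in WT in number 3. In number 2 it was at 2.92, 4.6 and 2.01 CPM, and in number 1 at 4.64, 3.82 and 0.995 CPM, in the same genotype order. Every number 3 library lay more than an order of magnitude above the other 6, with log2 fold changes of 5.03 ± 0.34 against number 2 (adjusted p = 7.78e-07) and 5.10 ± 0.34 against number 1 (adjusted p = 1.08e-06). XTH15 overlaps AT4G14120 on the opposite strand by 382 bases, and the sources used here do not state how strands were counted. AT4G14120 did not exceed 2.52 CPM in any library, and it was at 0.118 to 0.729 CPM in number 3.

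XTH17 (AT1G65310), XTH18 (AT4G30280), XTH19 (AT4G30290) and XTH20 (AT5G48070) are close relatives known from root tissue, and XTH18 and XTH19 are neighbours on chromosome 4, 1500 bases apart. XTH18 was at 25.9 CPM in pca31, 27.7 CPM in atrzf1 and 19.4 CPM in WT in number 3, and at 0.376 to 2.64 CPM in the other 6 libraries. XTH19 was at 24.2 CPM in pca31, 17.4 CPM in atrzf1 and 18.7 CPM in WT in number 3, and at 0.498 to 2.67 CPM in the other 6. Both genes were thus low in numbers 2 and 1 in each genotype. The log2 fold change of XTH18 was 4.76 ± 0.57 against number 2 (adjusted p = 4.93e-05) and 3.77 ± 0.52 against number 1 (adjusted p = 0.000242). For XTH19 it was 3.46 ± 0.33 (adjusted p = 8.94e-06) and 4.13 ± 0.34 (adjusted p = 5.07e-06). XTH20 was at 3.19 CPM in pca31, 0.875 CPM in atrzf1 and 1.97 CPM in WT in number 3, had 0 counts in number 2, and was at least 17.5-fold higher in number 3 than in number 2. XTH18 and XTH19 share runs of 50 identical bases at 1.57% and 1.63% of their transcript positions, so a small part of their reads could be exchanged. XTH24 (MERI5), the next gene beside XTH18 at a distance of 5161 bases, was not tested and stayed at 0.275 to 0.583 CPM in number 3, 0.042 to 0.116 CPM in number 2 and 0.193 to 0.338 CPM in number 1.

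XTH22 (TCH4, AT5G57560), induced by touch and by brassinosteroid, lies in a run of 4 group II genes on chromosome 5 with XTH12, XTH13 and XTH25. XTH22 was at 87.5 CPM in pca31, 129 CPM in atrzf1 and 184 CPM in WT in number 3. It was at 4.1, 6.66 and 5.29 CPM in number 2, and at 43.2, 43.5 and 25.2 CPM in number 1, in the same genotype order. The libraries of the 3 numbers did not overlap, and XTH22 was lowest in number 2 in each genotype. Its log2 fold change was 4.64 ± 0.32 for number 3 against number 2 (adjusted p = 9.39e-07), 1.81 ± 0.28 for number 3 against number 1 (adjusted p = 0.000573) and −2.84 ± 0.30 for number 2 against number 1 (adjusted p = 0.000131). XTH25, 565 bases from XTH22, had another order, with means of 21.2 ± 4.17 CPM in number 3, 9.78 ± 3.81 CPM in number 2 and 4.42 ± 0.977 CPM in number 1 (SD, n = 3 each). Number 2 against number 1 was 1.08 ± 0.28 for XTH25 (adjusted p = 0.0178), the opposite direction to XTH22, and this call of XTH25 was lost without WT library 1 (0.70), WT library 2 (0.77) or atrzf1 library 1 (1.18). XTH12 and XTH13 were nearly confined to number 3, at 0.984 to 1.61 CPM and 0.364 to 0.983 CPM, beside 1 library of number 2 with 0.042 CPM for XTH12 and 0 counts elsewhere. XTH12 was at least 13.5-fold higher in number 3 than in number 1, and XTH13 at least 6.72-fold higher than in number 2 and at least 7.59-fold higher than in number 1.

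XTH26 (AT4G28850), an enzyme of root hairs, was at 0.583 to 0.798 CPM in number 3 and had 0 counts in the other 6 libraries. XTH16 averaged 85.5 ± 27.1 CPM in number 3, 24.7 ± 3.5 CPM in number 2 and 30.9 ± 4.84 CPM in number 1 (SD, n = 3 each). Its log2 fold change was 1.78 ± 0.25 against number 2 (adjusted p = 0.000135) and 1.46 ± 0.25 against number 1 (adjusted p = 0.0009). XTH21, a root gene, was not tested and had 0.399 CPM in pca31, 0 counts in atrzf1 and 0.197 CPM in WT in number 3, and at most 0.0289 CPM in the others. In sum, root and root hair markers moved with these genes, as given above. However, 7 of the 11 tested root markers and 7 of the 8 root hair markers passed the filter only through number 3. These had to be high there. Of the other 4 root markers 3 were called higher in number 3 than in number 2 and than in number 1, and the other 1 root hair marker was called higher in both comparisons. SCR, which is also on the root list, was at 6.76 to 9.8 CPM in number 3, against 12.9 to 14.7 CPM in number 2 (log2 fold change −0.79 ± 0.22, adjusted p = 0.0097). That call was lost with library totals (−0.39) and without WT library 2 (−0.71), WT library 3 (−0.69) or atrzf1 library 3 (−0.65). The part of root tissue in the group II differences was not tested.

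**Figure D2:**
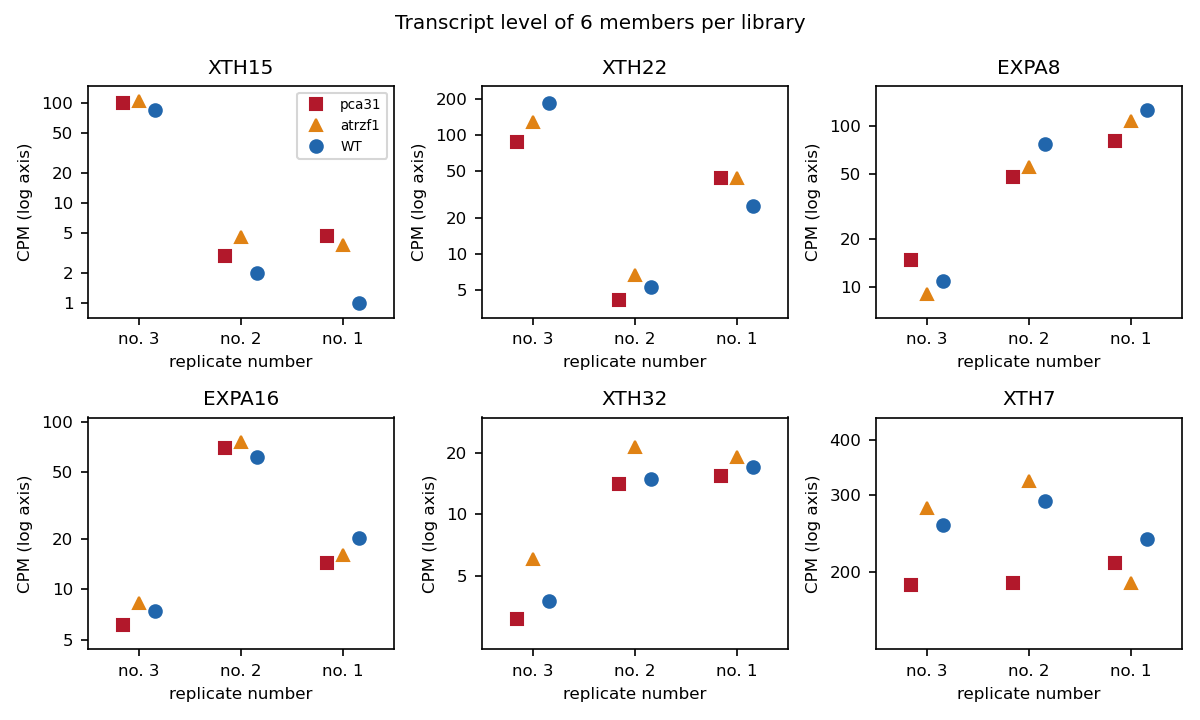
Level in CPM on log axes of 6 members in the 9 libraries, by replicate number, with red squares for pca31, orange triangles for atrzf1 and blue circles for WT. XTH15 and XTH22 are highest in number 3, EXPA8, EXPA16 and XTH32 are lowest there, EXPA16 is highest in number 2, and XTH7 differs little between numbers.

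Group I XTH genes, the most abundant ones, had smaller log2 fold changes than most of group II. Of the 6 tested, 2 were called higher and 2 lower in number 3 than in number 2, beside 25.8% and 23.4% of all genes. The median log2 fold change was −0.09. Against number 1, 2 were higher and 0 lower, beside 15.6% and 17.3%, with a median of 0.33. With library totals for scaling the median against number 2 turned to 0.32 and the 2 lower calls to 0, beside a median of all genes at 0.46. XTH6 was at 229 CPM in pca31, 274 CPM in atrzf1 and 343 CPM in WT in number 3, against 138, 140.0 and 130.3 CPM in number 2 and 184, 215 and 190.0 CPM in number 1. Every number 3 library of XTH6 lay above the other 6, and its log2 fold change was 1.04 ± 0.16 against number 2 (adjusted p = 0.000304). XTH4 was at 208 CPM in pca31, 251 CPM in atrzf1 and 189 CPM in WT in number 3, against 256, 325 and 267 CPM in number 2 and 126, 152 and 135 CPM in number 1. XTH4 was thus highest in number 2 in each genotype, with a log2 fold change of 1.03 ± 0.14 for number 2 against number 1 (adjusted p = 0.000624), −0.39 ± 0.14 for number 3 against number 2 (adjusted p = 0.0342) and 0.64 ± 0.14 for number 3 against number 1 (adjusted p = 0.00407). The XTH4 call against number 2 turned to 0.02 with library totals and was lost without WT libraries 1, 2 or 3 (−0.39, −0.38 and −0.32) and without atrzf1 libraries 2 or 3 (−0.38 and −0.41). XTH9 was at 101 CPM in pca31, 141 CPM in atrzf1 and 165 CPM in WT in number 3, against 152, 154 and 110.4 CPM in number 2 and 142, 189 and 129 CPM in number 1. XTH7 and XTH9 passed the test in none of the 3 comparisons of numbers, with the smallest adjusted p at 0.259 for XTH7 and 0.581 for XTH9. The 2 least abundant members, XTH5 and XTH8, averaged 3.51 and 11.8 CPM.

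Of the 6 group III members 2 were called higher and 1 lower in number 3 than in number 2, a share near the 49.2% of all genes called. Against number 1 there were 3 higher and 1 lower, beside 15.6% and 17.3% of all genes. XTH32 (AT2G36870), a close relative of the hydrolase XTH31 (AT3G44990), was the only XTH gene whose number 3 libraries all lay below the other 6. It was at 3.06 CPM in pca31, 6.01 CPM in atrzf1 and 3.77 CPM in WT in number 3, against 14, 21.2 and 14.9 CPM in number 2 and 15.3, 19 and 16.9 CPM in number 1. Its log2 fold change was −1.99 ± 0.19 against number 2 (adjusted p = 1.14e-05) and −2.04 ± 0.19 against number 1 (adjusted p = 1.57e-05). XTH30 went the other way, at 44.5 CPM in pca31, 47.6 CPM in atrzf1 and 64.4 CPM in WT in number 3, against 5.21 to 13.3 CPM in the other 6 libraries (2.83 ± 0.31 against number 2, adjusted p = 2.36e-05). XTH31, which hydrolyses xyloglucan, was at 9.11, 8.2 and 6.88 CPM in number 3, 7.83, 15.5 and 5.33 CPM in number 2, and 6.25, 7.07 and 15 CPM in number 1, for pca31, atrzf1 and WT in that order. The XTH31 libraries of the 3 numbers overlapped, and no comparison of numbers passed the test (smallest adjusted p = 0.717). XTH27 (AT2G01850), known from leaf veins, averaged 83.1 ± 21.4 CPM in number 3, 56.1 ± 5.11 CPM in number 2 and 42.6 ± 3.15 CPM in number 1 and was called higher in number 3 than in both. The XTH27 call against number 2, at 0.55, was lost without WT libraries 2 or 3 (0.59 each) and without atrzf1 libraries 2 or 3 (0.45 and 0.31). XTH28, known from stamen filaments, averaged 58.6 ± 7.09, 54.3 ± 3.22 and 51.5 ± 5.19 CPM in numbers 3, 2 and 1 and was called in no comparison. XTH33, the least abundant of the group, averaged 1.68 ± 0.473 CPM in number 3, 0.535 ± 0.117 CPM in number 2 and 0.297 ± 0.219 CPM in number 1, and was called against number 1 (2.55 ± 0.68, adjusted p = 0.0132) but not against number 2 (1.64 ± 0.64, adjusted p = 0.0511). The first XTH33 call was lost without atrzf1 libraries 1 or 3 (2.01 and 2.28), and the second comparison passed in 5 of the other fits, among them DESeq2 and limma-voom.

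Alpha-expansins were mostly lower in number 3. Of the 14 tested, 0 were called higher and 10 lower in number 3 than in number 2, beside 25.8% and 23.4% of all genes. The median log2 fold change was −1.53. Against number 1, 2 were higher and 8 lower, beside 15.6% and 17.3%, with a median of −0.90. The 13 expansins that did not pass the filter only through number 3 gave the same counts, with medians of −1.58 and −0.99. The 8 expansins EXPA1, EXPA3, EXPA5, EXPA6, EXPA8, EXPA10, EXPA11 and EXPA16 lay below all 6 other libraries in every number 3 library, and with XTH32 they made 9 such members, a pattern of 17.3% of all genes tested. Against number 1 the exceptions were EXPA4 and EXPA15, which were called higher in number 3 by 0.48 ± 0.16 (adjusted p = 0.0339) and 0.82 ± 0.20 (adjusted p = 0.00747). This EXPA4 call was lost without any 1 of the libraries 1 or 3 of each genotype (0.41 to 0.55). Against number 2 EXPA4 was instead among the 10 called lower. That call was kept in only 1 of 9 fits with 1 library left out (−0.52 to −0.29). EXPA9, EXPA13 and EXPA14 were called in no comparison of numbers, and EXPA14, which passed the filter only through number 3, stayed at 0.178 to 1.46 CPM.

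EXPA8 (AT2G40610) was at 14.7 CPM in pca31, 9.11 CPM in atrzf1 and 11 CPM in WT in number 3. It was at 47.9, 55.4 and 77.5 CPM in number 2 and at 80.6, 107 and 126 CPM in number 1, in the same genotype order. The libraries of the 3 numbers did not overlap, and the log2 fold change was −2.35 ± 0.23 for number 3 against number 2 (adjusted p = 1.21e-05), −3.15 ± 0.24 against number 1 (adjusted p = 2.86e-06) and −0.80 ± 0.22 for number 2 against number 1 (adjusted p = 0.0223). EXPA8 was the one expansin called lower in number 2 than in number 1. That call was lost when WT library 1, atrzf1 library 1, atrzf1 library 2 or pca31 library 2 was left out, at −0.75, −0.66, −0.82 and −0.62.

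EXPA16 (AT3G55500) was at 6.15 CPM in pca31, 8.34 CPM in atrzf1 and 7.47 CPM in WT in number 3. It was at 69.7, 76.1 and 62.2 CPM in number 2 and at 14.4, 16 and 20.3 CPM in number 1. Number 2 was thus above all others and number 3 below all others, with log2 fold changes of −3.25 ± 0.19 for number 3 against number 2 (adjusted p = 3.33e-07), −1.21 ± 0.18 against number 1 (adjusted p = 0.000442) and 2.05 ± 0.18 for number 2 against number 1 (adjusted p = 4.11e-05). EXPA1 had the same order at a higher level, with 91.2, 106 and 97.7 CPM in number 3, 323, 417 and 354 CPM in number 2 and 230.3, 229.8 and 305 CPM in number 1, for pca31, atrzf1 and WT in that order. EXPA1 changed by −1.89 ± 0.16 for number 3 against number 2 (adjusted p = 4.23e-06) and by −1.37 ± 0.16 against number 1 (adjusted p = 6.77e-05).

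EXPA10 (AT1G26770), known from leaf growth, was at 6.61 CPM in pca31, 7.65 CPM in atrzf1 and 8.49 CPM in WT in number 3, against 31.4, 56.1 and 31.6 CPM in number 2 and 19.6, 13.3 and 15.9 CPM in number 1. EXPA11 (AT1G20190) was at 13, 11.5 and 11.4 CPM in number 3, 37.4, 56.4 and 44.2 CPM in number 2 and 29.5, 30.8 and 33.7 CPM in number 1. EXPA10 and EXPA11 were lowest in number 3 in each genotype, by −2.36 ± 0.26 and −1.92 ± 0.19 against number 2 (adjusted p = 2.48e-05 and 1.02e-05). EXPA3, EXPA5 and EXPA6 had the same low number 3, with means of 15.2 ± 2.14, 13 ± 3.4 and 44 ± 10.1 CPM, against 49.8 ± 11.1, 36.1 ± 4.4 and 130.3 ± 9.66 CPM in number 2 (SD, n = 3 each). Over the 14 tested expansins 8 were called higher and 1 lower in number 2 than in number 1, beside 9.87% and 12.1% of all genes. The median log2 fold change was 0.61. EXPA20 (AT4G38210) averaged 3.89 ± 0.114 CPM in number 3, 10.8 ± 1.62 CPM in number 2 and 4.48 ± 1.84 CPM in number 1. It overlaps the lncRNA gene AT4G38215 on the opposite strand by 1061 bases, so its count is uncertain without the strand, although AT4G38215 did not exceed 0.57 CPM. The root-related EXPA17 and the seed gene EXPA2 were not tested and stayed at or below 0.355 and 0.131 CPM, where the floor of 3 counts is 0.0867 to 0.131 CPM depending on the library.

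**Figure D3:**
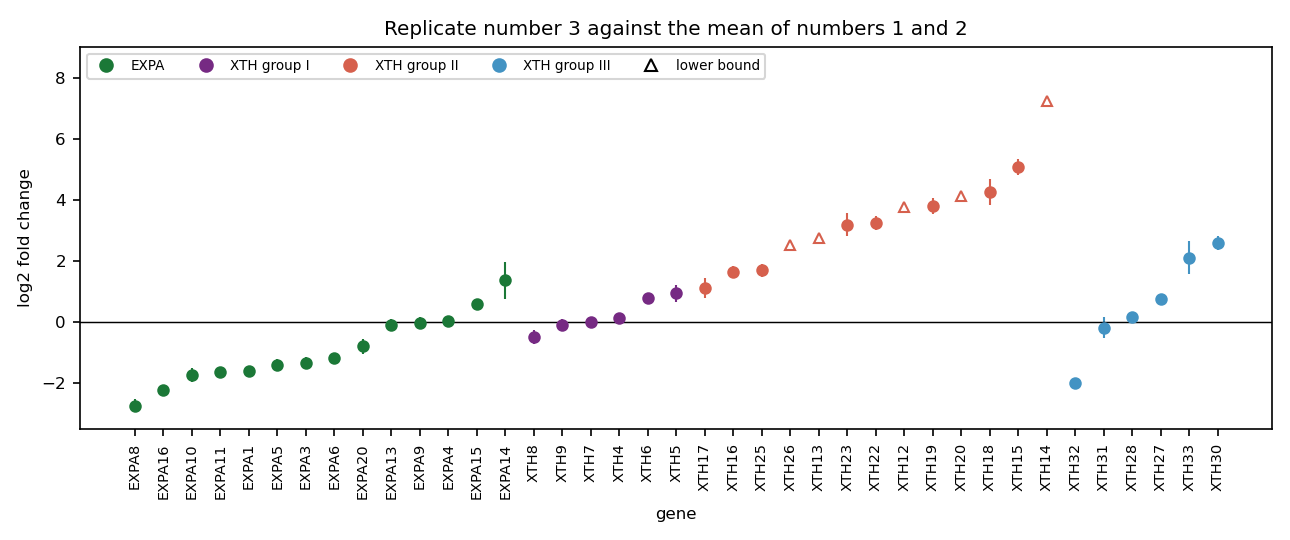
Log2 fold change of number 3 against the mean of numbers 1 and 2 for the 39 tested genes, coloured by group, with bars for SE. Open triangles are lower bounds for the genes with 0 counts in number 1, number 2 or both, set at 3 counts per library, taking the lower bound where both numbers were at 0. Most EXPA points lie below 0 and all group II points above it.

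In sum over a family, the EXPA genes gave 299 CPM in pca31, 315 CPM in atrzf1 and 299.7 CPM in WT in number 3, against 827, 1003 and 894 CPM in number 2 and 575, 595 and 732 CPM in number 1. Group II gave 357, 431 and 476 CPM in number 3, 50.5, 47.4 and 50.9 CPM in number 2, and 97.1, 92.6 and 64.5 CPM in number 1. The ratio of the XTH sum to the EXPA sum was 4.24 in pca31, 5.15 in atrzf1 and 5.54 in WT in number 3, against 1.14, 1.16 and 1.13 in number 2 and 1.55, 1.64 and 1.25 in number 1. The ratio does not depend on library scaling, and it was lowest in number 2 and highest in number 3 in each genotype. Group I sums spanned 740.4 to 962 CPM in number 3, 750.5 to 961 CPM in number 2 and 671 to 757 CPM in number 1.

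**Figure D4:**
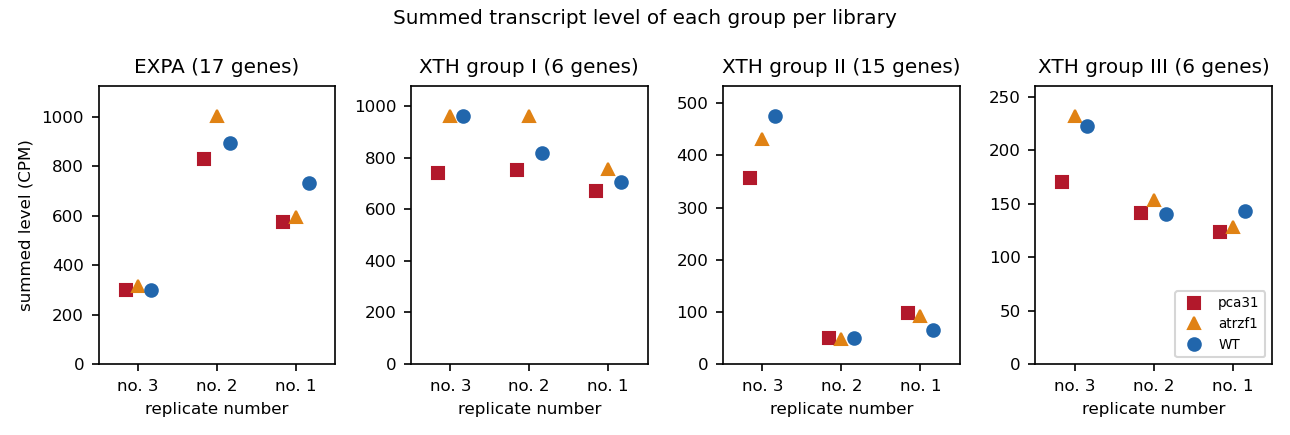
Summed level in CPM of the EXPA genes and of XTH groups I, II and III in each library, by replicate number, with red squares for pca31, orange triangles for atrzf1 and blue circles for WT. In number 3 the EXPA sums are near 300 CPM and the group II sums between 357 and 476 CPM.

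Within each gene, replicate number took a median of 89.7% of the sum of squares of log2 CPM over the 39 tested genes, beside 68% over all genes tested. The 39 include the 6 members that passed the filter only through number 3, which favours a high share. By group the median was 92% in EXPA, with 1 such member, and 93.4% in group II, with 5. It was 62.5% in group I and 79.1% in group III, with 0 each. Genotype took a median of 2.01%, beside 8.49% over all genes. The share of number exceeded that of genotype in 36 of 39 members. XTH7 and XTH9 of group I and XTH31 of group III were the members in which it did not.

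The second question was whether genotype altered these genes, and 0 of the 39 tested members were called in any of the 3 genotype comparisons. This held in the fit without a block for replicate number and in the fit with it. By edgeR without the block, 0.00484% of all genes were called in pca31 against atrzf1, 0.00484% in pca31 against WT and 0% in atrzf1 against WT. With the block these shares were 0.00484%, 0.0435% and 0.0339%. Members with an unadjusted p under 0.05 numbered 0 in each comparison without the block, beside 0.213%, 0.919% and 0.556% of all genes in the same order. With the block they were 2 in pca31 against atrzf1, 3 in pca31 against WT and 2 in atrzf1 against WT, beside 4.42%, 8.44% and 3.73% of all genes. DESeq2 and limma-voom also called 0 members, and a block fit on numbers 1 and 2 alone called 0. A gene that misses the threshold is not shown to be equal between genotypes, and the errors below give the size of difference that the libraries could resolve.

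In pca31 against atrzf1 the member median was −0.16 on the log2 scale with the block, with 13 above 0 and 26 below, beside a median of 0.03 over all genes. With library totals for scaling and no block the median of all genes was 0.15 and that of the members −0.03, while the medians of EXPA and group II turned positive, at 0.08 and 0.03. All 3 same-number differences were lower in pca31 for 9 of 39 members, beside 11.4% of all genes, and higher for 1, beside 12.6%. No member had groups without overlap in either direction, a pattern of 1.79% of all genes for higher values and 1.27% for lower ones. All 6 group I genes were below 0 with the block, at −0.41 to −0.16, and the smallest adjusted p was 0.956.

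Among members of at least 5 CPM in their higher group that moved one way in all 3 numbers, XTH32 had the largest difference between pca31 and atrzf1. It averaged 10.8 ± 6.73 CPM in pca31 and 15.4 ± 8.23 CPM in atrzf1 (SD, n = 3 each), was lower in pca31 in 3 of 3 numbers, and differed by −0.62 ± 0.19 with the block (edgeR, adjusted p = 0.956). The genotype groups overlap because number 3 libraries are low in each of them. XTH22 averaged 44.9 ± 41.7 CPM in pca31 and 59.8 ± 62.8 CPM in atrzf1, with −0.38 ± 0.28 (adjusted p = 0.956). XTH4 averaged 196 ± 65.8 CPM in pca31 and 243 ± 86.4 CPM in atrzf1, with −0.30 ± 0.14 (adjusted p = 0.956), and XTH9 132 ± 26.6 CPM and 162 ± 24.8 CPM, with −0.29 ± 0.20 (adjusted p = 0.956). Each was lower in pca31 in 3 of 3 numbers without passing the test. No member of at least 5 CPM in its higher group was higher in pca31 in all 3 numbers.

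In pca31 against WT the member median was −0.06 with the block, with 12 above 0 and 27 below. Without the block it was −0.07, and library totals turned it to 0.12, beside 0.21 over all genes. All 3 same-number differences were lower in pca31 for 7 members and higher for 3, beside 14.3% and 15.7% of all genes. XTH7 was the one member whose groups did not overlap, a pattern of 2.06% of all genes for lower values and 2.89% for higher ones. In pca31 it was at 186 CPM in number 3, 188 CPM in number 2 and 209 CPM in number 1, against 255, 290 and 238 CPM in WT. Its log2 fold change was −0.42 ± 0.26 without the block (adjusted p = 1) and −0.41 ± 0.18 with it (adjusted p = 0.572). In atrzf1 the XTH7 values were 279, 322 and 188 CPM in numbers 3, 2 and 1, so pca31 was lower than atrzf1 in numbers 3 and 2 and higher in number 1.

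XTH19 and XTH15 were the 2 members of at least 5 CPM in their higher group that were higher in pca31 than in WT in 3 of 3 numbers. With the block XTH19 differed by 0.84 ± 0.32 (adjusted p = 0.522) and XTH15 by 0.83 ± 0.31 (adjusted p = 0.521). Most of the level of both lies in number 3, where XTH15 was at 101 CPM in pca31 and 85.6 CPM in WT, while the ratio was larger at the low levels of number 1, with 4.64 CPM in pca31 and 0.995 CPM in WT. Without the block the same difference of XTH15 was 0.30 ± 1.92, a wider error because the replicate numbers then count as spread. EXPA20, XTH27 and EXPA1 were lower in pca31 in 3 of 3 numbers, by −0.37 ± 0.27, −0.24 ± 0.18 and −0.22 ± 0.16 (adjusted p = 0.748, 0.756 and 0.739).

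Between atrzf1 and WT the member median was 0.03 with the block, with 21 above 0 and 18 below. All 3 same-number differences were higher in atrzf1 for 5 of 39 members and lower for 2, beside 12.1% and 13.1% of all genes. Groups without overlap were found for 0 members, beside 1.3% of all genes for higher values and 1.14% for lower ones. XTH15 averaged 38 ± 58.5 CPM in atrzf1 and 29.5 ± 48.6 CPM in WT and differed by 0.95 ± 0.31 with the block (adjusted p = 1). XTH32 averaged 15.4 ± 8.23 CPM in atrzf1 and 11.8 ± 7.06 CPM in WT, with 0.45 ± 0.19 (adjusted p = 1), and XTH4 243 ± 86.4 CPM and 197 ± 66.2 CPM, with 0.29 ± 0.14 (adjusted p = 1). XTH32 and XTH4 were thus above WT in atrzf1 and below atrzf1 in pca31 in 3 of 3 numbers each, although the 2 comparisons share the atrzf1 libraries and neither passed the test. EXPA8 was lower in atrzf1 than in WT in 3 of 3 numbers, at 57.2 ± 49 CPM in atrzf1 and 71.4 ± 57.5 CPM in WT, with −0.33 ± 0.22 (adjusted p = 1).

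**Figure D5:**
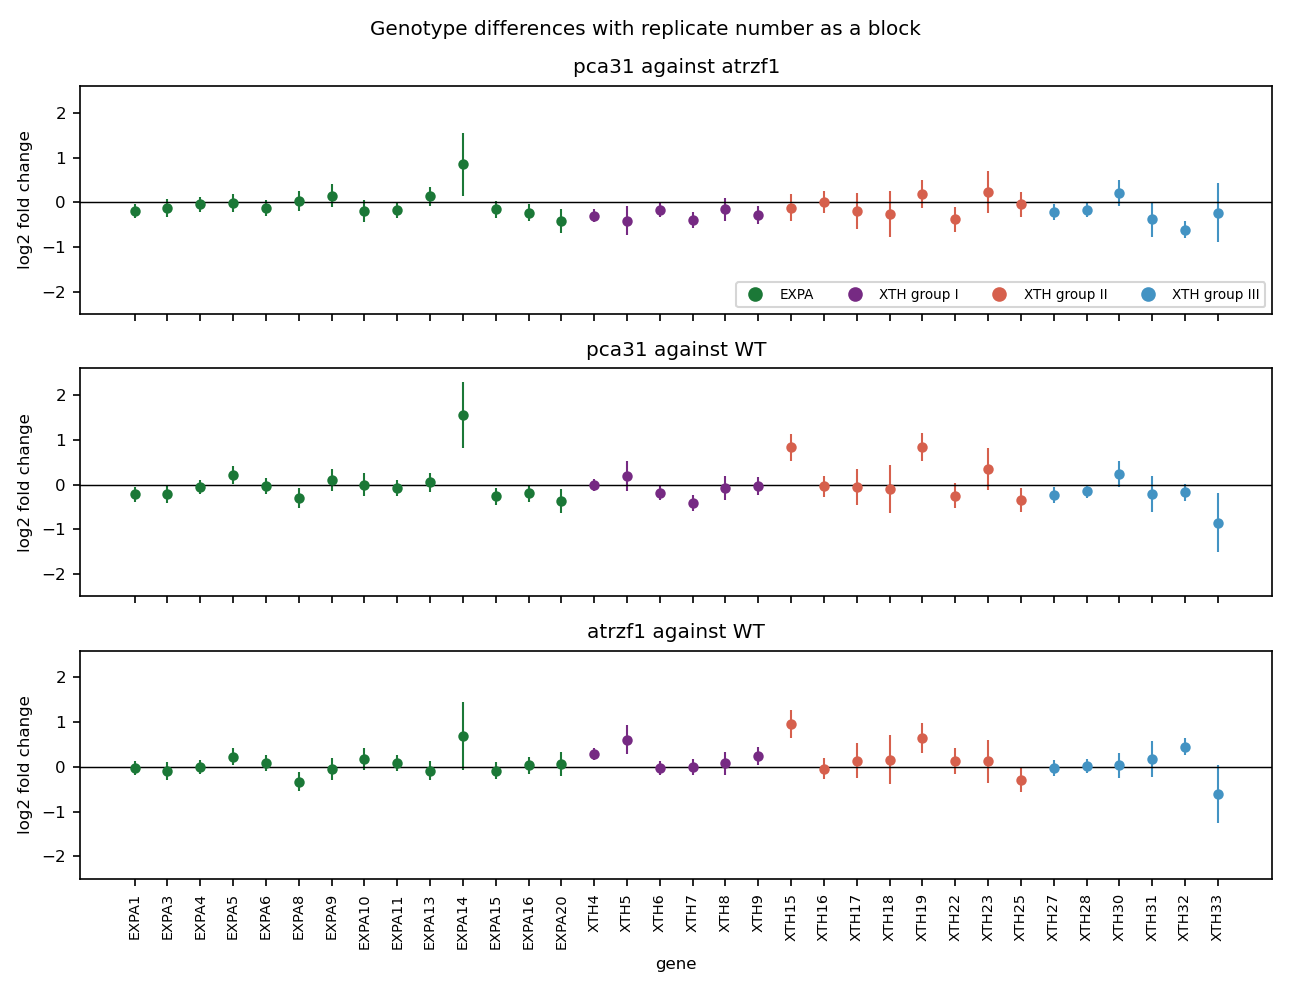
Log2 fold change with replicate number as a block, with bars for SE, in pca31 against atrzf1 (top), pca31 against WT (middle) and atrzf1 against WT (bottom), for 34 tested genes coloured by group. The 5 genes with 0 counts in 5 or more libraries are left out. Most points lie within 0.5 of 0, and no point passed the test.

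Relatives and partners of these genes were examined from lists of other expansin families, xyloglucan synthesis, touch and growth hormone genes. Among 10 genes of the EXPB, EXLA and EXLB families 6 were tested, and 1 was called higher and 1 lower in number 3 than in number 2, beside 25.8% and 23.4% of all genes. EXLA1 was at 72.7 CPM in pca31, 100.5 CPM in atrzf1 and 95.9 CPM in WT in number 3, against 23.7 to 34.5 CPM in the other 6 libraries (1.85 ± 0.17 against number 2, adjusted p = 8.88e-06). EXLB1 was at 3.95, 4.52 and 7.98 CPM in number 3 and 15, 25.5 and 28.6 CPM in number 2 (−2.08 ± 0.20, adjusted p = 9.62e-06). These 2 relatives thus moved in opposite directions. EXPB1 was lower in number 3 than in number 1 by −1.88 ± 0.34 (adjusted p = 0.00132). EXPA7 and EXPA18, the root hair expansins set aside by the rule, were at 5.25 to 8.77 CPM and 4.66 to 7.08 CPM in number 3 and had at most 0.0644 CPM elsewhere. XTH3, also set aside, had 0, 6.19 and 4.31 CPM in pca31 and 0, 4.07 and 3.11 CPM in atrzf1 for numbers 3, 2 and 1, and 0 counts in every WT library, and with the block it was called in both mutants against WT (edgeR, adjusted p = 0.0153 for pca31 and 0.0355 for atrzf1). It was called in neither without the block (adjusted p = 1 each), nor with the block by DESeq2 or limma-voom. The 7 floral organ markers reached 52.3 and 48.8 CPM in pca31 and 26.1 and 64.5 CPM in atrzf1 in numbers 2 and 1, against 7.3 and 8 CPM in WT, and their part in the XTH3 difference was not tested.

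Of 10 genes that build or trim xyloglucan, 3 were called higher (XXT1, XYL1 and AXY8) and 3 lower (XXT2, XLT2 and FUT1) in number 3 than in number 2, shares near the 25.8% and 23.4% of all genes. Against number 1 the counts were 3 and 5, beside 15.6% and 17.3%. XXT1, a xylosyltransferase, was at 57.4 CPM in pca31, 73.2 CPM in atrzf1 and 78.5 CPM in WT in number 3, against 18.2 to 31.3 CPM in the other 6 libraries (1.52 ± 0.19 against number 2, adjusted p = 5.62e-05). XXT2, an enzyme of the same reaction, was at 97.5 to 109 CPM in number 3, against 135 to 155 CPM in the other 6 (−0.48 ± 0.14, adjusted p = 0.0162). The XXT2 call was lost with library totals (−0.07) and without WT library 2 (−0.44), WT library 3 (−0.43) or pca31 library 3 (−0.45). The median of the list was −0.17 against number 2 and −0.24 against number 1. In none of the 3 genotype comparisons was a gene of this list called (smallest adjusted p = 0.573 with the block).

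Touch, wound and cold regulators were called lower in number 2 than in number 1 for 6 of 10 genes and higher for 0, beside 12.1% and 9.87% of all genes, the same direction as XTH22. CBF2, a cold-induced transcription factor gene, had a log2 fold change of −3.36 ± 0.70 (adjusted p = 0.00662) and ZAT10, a zinc finger gene, −1.92 ± 0.42 (adjusted p = 0.00804). In number 3 against number 2 the list had 3 higher and 0 lower, beside 25.8% and 23.4% of all genes. Against number 1, where XTH22 was higher, the list had 0 higher and 2 lower, beside 15.6% and 17.3%. Of 18 brassinosteroid, gibberellin and growth regulator genes, 7 were called higher and 6 lower in number 3 than in number 2, 5 and 5 against number 1, and 4 and 3 in number 2 against number 1, beside the shares of all genes given above for these comparisons. BES1, a transcription factor of brassinosteroid signalling, was at 40.6, 50.5 and 60.0 CPM in number 3, 156, 212 and 205 CPM in number 2 and 66.4, 71.5 and 69.4 CPM in number 1, for pca31, atrzf1 and WT in that order. BES1 was thus highest in number 2 and lowest in number 3, the order also seen for EXPA16 and EXPA1. Its test outcome for number 3 against number 1 stayed the same in only 3 of 9 fits with 1 library left out (−0.57 to −0.36). Other brassinosteroid genes of the list were mixed. DWF4 averaged 3.96, 8.37 and 7.9 CPM and IBH1 2.86, 6.57 and 4.81 CPM in numbers 3, 2 and 1. These and PRE5 had the order of BES1. BRI1 averaged 60.3, 22.8 and 27.9 CPM and ROT3 5.66, 0.897 and 1.74 CPM in numbers 3, 2 and 1. These and BAS1 had the opposite order, while CPD, BR6OX2 and BZR1 had neither. PIF5, a growth-promoting transcription factor gene, was at 12.7 to 17.6 CPM in number 2, against 109.7 to 124 CPM in number 3 and 119 to 146 CPM in number 1 (−3.13 ± 0.16 for number 2 against number 1, adjusted p = 6.83e-07). In the genotype comparisons 0 genes of both lists were called.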

How the data were processed

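The deposited files give raw counts of reads per gene, all whole numbers. Per the labels' protocols, 500 ng of total RNA extracted with TRIzol went into Lexogen QuantSeq libraries. Bowtie2, bedtools and the TAIR10 build were used, per the submitters' processing notes. The sources used here do not state the counting strand or annotation. Symbols, positions and upstream sequences came from RefSeq for TAIR10.1, joined by locus tag (32835 of 33323 identifiers and 44 of 44 members matched). The column headings carry the numbers 1 and 2, and number 3 comes from the sample title.

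Counts were tested in R 4.3.3 with edgeR 4.0.16 (filterByExpr with minimum count 10 and minimum total 15, TMM factors of 0.819 to 1.25, quasi-likelihood test, Benjamini-Hochberg adjustment over 20672 genes, threshold 0.05), checked on simulated data. Genotype was the only term of its fit, with the replicate number as a block in the alternative. The numbers were fitted with genotype as a term. Deviations from genotype means correlated at 0.585 to 0.849 in the 9 pairs of libraries with the same number and at −0.736 to 0.271 in the 18 other pairs, so the numbers pair the samples. Libraries of a pair with the same number or genotype differed beyond counting noise, so none was counted as a duplicate. CPM uses the TMM-scaled library size. A group with 0 counts in all libraries was set to 3 counts per library for a lower bound, and such floors cover counting error only. Sums of squares used log2 CPM with a prior count of 2.

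Genotype comparisons named the 4 members with the largest rise and fall with the block, at a mean of at least 5 CPM and with the same sign in 3 numbers. Number comparisons named the 6 called members with the largest rise and fall at that level. The 5 most abundant members, XTH22, XTH31 and neighbouring members were also named, and other genes given by value were chosen after their values were seen. Members and lists were chosen with earlier results of these data known. Alternatives changed the scaling, the filter, the tool (DESeq2 1.42.0, limma 3.58.1 with voom), the terms and the libraries, and limma-voom with the block was chosen after seeing the data.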

Additional observations from a re-analysis of the deposited data

How the results depend on the processing

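The 0 members called in each genotype comparison stayed at 0 under all 13 alternatives and all 9 single-library omissions, and the fit with the replicate block, with DESeq2 or limma-voom too, changed no call of a member. The block value of the counts was 0 in each comparison. Members called numbered 30 for number 3 against number 2 (22 to 31 over 8 alternatives, 25 to 30 with a library left out), 28 for number 3 against number 1 (22 to 30, 23 to 29) and 14 for number 2 against number 1 (11 to 14, 6 to 14). The last count fell to 9 without WT library 1, 9 without WT library 2, 6 without atrzf1 library 1 and 8 without atrzf1 library 2, in fits with fewer samples. Scaling by library totals put EXPA1 at 0.00 in pca31 against WT, XTH4 at 0.02 and EXPA4 at 0.00 in number 3 against number 2 and XTH15 at −0.02 in number 2 against number 1, and omitting the genotype term put XTH15 at −0.00 there; the cause was not tested. Library totals also ended the calls of EXPA1 and EXPA11 in number 2 against number 1 (0.43 and 0.45), and these calls held in only 4 and 2 of 9 fits with 1 library left out (0.37 to 0.67 and 0.36 to 0.72). With 1 library left out and no block, log2 fold changes changed sign for XTH22 in pca31 against atrzf1 (−1.36 to 0.84), for XTH19 (−1.85 to 3.50), XTH15 (−2.99 to 4.58), EXPA20 (−1.13 to 0.36) and EXPA1 (−0.67 to 0.10) in pca31 against WT, and for XTH15 (−2.81 to 4.65), XTH32 (−0.04 to 0.76) and EXPA8 (−1.15 to 0.37) in atrzf1 against WT. In number 2 against number 1 they changed sign for XTH15 (−0.30 to 0.50), XTH23 (−0.71 to 0.43) and XTH32 (−0.19 to 0.03). The groups then hold unequal sets of numbers, and none of these values was called. The differences of number 3 for XTH14, XTH15, XTH18, XTH19, XTH22, XTH23, XTH32, EXPA1, EXPA8, EXPA10, EXPA11 and EXPA16 kept their direction and call in these fits and under those of the 8 alternatives that tested them, while those of XTH4, XTH17, XTH27, XTH33 and EXPA4 given above did not. Other members were also unsteady with 1 library left out. For number 3 against number 1 the test outcome stayed the same in 4 of 9 fits for XTH6 and XTH26, 6 for XTH13 and 7 for EXPA6. Against number 2 it stayed the same in 5 of 9 for XTH5, 7 for XTH8 and 8 for XTH13 and XTH26.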
